A study of Mus musculus with 2 samples.

Results

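The genes of the cohesin ring, its loader, its release factors and the DNA-binding protein CTCF were compared between the mouse B cell lymphoma line CH12F3 and CH12F3 cells labelled Lig4-/-, with 1 RNA-seq library for each. Lig4 encodes DNA ligase IV, which seals broken DNA ends in nonhomologous end joining. Both lines were grown in RPMI medium with 10% fetal bovine serum, and the labels name no other treatment and do not say how the Lig4-/- cells were made or whether they are 1 clone. The 10 genes (Smc1a, Smc3, Rad21, Stag1, Stag2, Wapl, Pds5a, Pds5b, Nipbl and Ctcf) were taken by symbol from a table of 51840 genes, and each was found under a single mouse Ensembl identifier. They were chosen by these same FPKM values, because cohesin genes were higher in the library labelled Lig4-/-, so that direction is a property of the choice and is described here without a test.

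Cohesin is a ring made of a pair of SMC ATPases, SMC1A and SMC3, closed by the kleisin RAD21 and bound by 1 STAG protein. NIPBL loads it onto DNA and drives the extrusion of chromatin loops, PDS5 proteins and WAPL release it, and CTCF bound to DNA halts it at loop anchors. In dividing cells the ring also holds sister chromatids together until anaphase. In B cells, loop extrusion by cohesin brings distant parts of the immunoglobulin heavy chain locus together during V(D)J recombination and class switching, the recombination that exchanges the constant region of an antibody and whose breaks are largely sealed through ligase IV.

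Promoter sequences were found for 7 of the 10 genes in RefSeq (GRCm38.p6), the others being Rad21, Stag2 and Nipbl, and 4 of them are shown because they set the gene with the highest log2 ratio of the 7 (Wapl) against the lowest (Smc1a), beside the paralogs Pds5a and Pds5b. Each run is the 250 bases before the start annotated in RefSeq, 5′ to 3′ on the strand of the gene. Capitals mark the CCAAT box (CCAAT), the GC box (GGGCGG) and a short part of the CTCF motif (AGGNGGC), on either strand. RefSeq starts can differ from the GENCODE gene spans given below. The runs of Pds5a and Pds5b overlap those spans in part, and the Stag1 promoter counted below lies inside its span. Wapl lies at chr14:34673678-34673927 (plus strand), Smc1a at chrX:152016178-152016427 (plus), Pds5a at chr5:65698237-65698486 (minus) and Pds5b at chr5:150673577-150673826 (plus).
Wapl: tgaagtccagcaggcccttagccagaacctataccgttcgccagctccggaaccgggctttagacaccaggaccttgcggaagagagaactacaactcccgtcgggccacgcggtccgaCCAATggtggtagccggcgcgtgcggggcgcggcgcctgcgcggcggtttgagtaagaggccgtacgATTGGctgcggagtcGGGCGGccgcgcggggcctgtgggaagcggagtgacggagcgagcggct
Smc1a: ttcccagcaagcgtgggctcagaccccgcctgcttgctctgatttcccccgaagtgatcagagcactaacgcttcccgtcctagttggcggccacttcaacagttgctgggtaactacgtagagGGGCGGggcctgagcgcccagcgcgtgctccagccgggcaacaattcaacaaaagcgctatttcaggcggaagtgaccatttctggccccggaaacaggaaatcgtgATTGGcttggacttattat
Pds5a: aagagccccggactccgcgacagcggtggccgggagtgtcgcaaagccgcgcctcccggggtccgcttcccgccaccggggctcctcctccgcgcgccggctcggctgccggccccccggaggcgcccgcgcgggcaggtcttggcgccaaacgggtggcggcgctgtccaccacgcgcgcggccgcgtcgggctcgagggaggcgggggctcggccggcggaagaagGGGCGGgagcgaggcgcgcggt
Pds5b: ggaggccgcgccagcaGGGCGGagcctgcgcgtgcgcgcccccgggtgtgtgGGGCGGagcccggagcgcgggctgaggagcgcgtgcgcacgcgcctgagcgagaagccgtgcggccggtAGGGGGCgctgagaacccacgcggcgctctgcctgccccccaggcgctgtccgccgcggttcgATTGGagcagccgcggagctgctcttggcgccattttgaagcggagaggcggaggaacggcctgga
The GC box was present in all 7 promoters and in 32.7% of the 32851 promoters of the same length in the table. The CCAAT box was present in 4 (Pds5b, Smc1a, Stag1 and Wapl) and in 33.9% of all. The part of the CTCF motif was present in 2, those of Ctcf and Pds5b, and in 8214 of the 32851. An E2F-like site (TTTCGCGC) and a cyclic AMP response element (TGACGTCA) were searched as well and were in none of the 7, and in 0.256% and 1.55% of all promoters. The 7 promoters held between 16 CpG dinucleotides (Smc1a) and 44 (Pds5a), against a median of 6 in all promoters, and their GC content ran from 56.8% to 80.4%. A match of letters is a description of the sequence and not of binding.

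The values were FPKM, fragment numbers scaled by transcript length and by the mapped fragments of a library, as the authors deposited them. They are per length, so levels of different genes in 1 library can be set side by side as far as length goes. The 2 libraries differed with GC content, as given below. Ratios, shares and orders of genes were not adjusted for it, so those between genes of unlike GC content carry that difference. With 1 library per line no spread could be estimated, no difference below carries a p-value, and any difference describes these 2 libraries. Read numbers are not stated in the sources, so no counting error can be attached to a value. Of the 10 genes, 10 were expressed, meaning a mean of at least 1 FPKM over both libraries, and 9 were above 1 FPKM in each. Stag1, at 0.78 FPKM in CH12F3, passed through its level in the library labelled Lig4-/-. The log2 ratio used throughout is that of FPKM + 1, Lig4-/- over CH12F3, which understates the difference of low genes. Folds given for single genes are ratios of the deposited FPKM. Genes counted as past or within 2-fold or 4-fold were so by the log2 ratio, unless stated.

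The targeted gene, Lig4, was at 0.13 FPKM in CH12F3 and 0.64 FPKM in the library labelled Lig4-/-, so its level did not check the labels, and the name of that library rests on its label. All 8 B cell markers, among them Cd79a, Cd79b, Ms4a1, Pax5 and Ighm, were at 1 FPKM or more in both libraries, with summed levels of 6583 and 10296 FPKM. Most of each sum was Ighm, at 5142 and 9325 FPKM, so the sums do not describe the markers as a group. Cd79b went the other way, at 1187 and 481 FPKM. Of 6 T cell markers 1 and 2 reached 1 FPKM (sums of 8.99 and 4.60 FPKM, Cd2 at 0 in both), of 6 myeloid markers 2 and 4 (5.25 and 9.79 FPKM, Cd14 at 0), of 4 erythroid markers 1 and 1 (30.5 and 23.6 FPKM, all from Hba-a1, with Hbb-bs and Hbb-bt at 0) and of 4 fibroblast markers none (0.31 and 0.14 FPKM, Dcn and Pdgfra at 0), in CH12F3 and the other library. The part of other cells in the results below was not tested.

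All 10 genes were higher in the library labelled Lig4-/-, and their summed level was 90.9 FPKM in CH12F3 and 284 FPKM in that library. On the FPKM + 1 scale, 8 of the 10 were at least 2-fold higher, and 4 were at least 4-fold higher (Stag2, Wapl, Nipbl and Pds5a). By the deposited FPKM 9 were at least 2-fold higher, and Stag1 (7.64-fold) and Pds5b (5.55-fold) also passed 4-fold. Among all 11437 expressed genes, on the FPKM + 1 scale, 21.0% were at least 2-fold higher, 4.09% at least 2-fold lower and 3.13% at least 4-fold higher. The median log2 ratio was 1.89 over the 10 genes and 0.17 over all expressed genes. Since the genes were chosen as higher, nothing is read from these counts beyond their size.

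**Figure D1:**
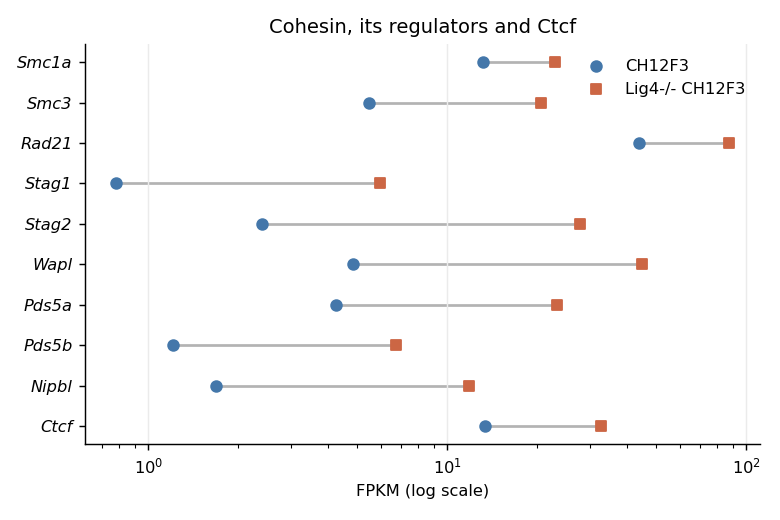
FPKM on a log scale of the 10 genes in the CH12F3 library (circles) and the library labelled Lig4-/- (squares), 1 library each, so there are no error bars. Every square lies to the right of its circle, by least for Smc1a (13.2 and 22.9 FPKM) and by most for Stag2 (2.40 and 27.8 FPKM).

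Among the core subunits of the ring, Rad21 was the most abundant of the 10 genes in both libraries, and Rad21 and Smc1a were the 2 of the 10 that were less than 2-fold apart on the FPKM + 1 scale. Rad21 (ENSMUSG00000022314), the kleisin whose cleavage by separase opens the ring at anaphase, was at 43.8 FPKM in CH12F3 and 87.7 FPKM in the library labelled Lig4-/-. The gene lies on chromosome 15 from 51962240 to 51991747, minus strand, in GENCODE M21 on GRCm38, the annotation from which the positions of the other genes were also taken. Its log2 ratio of 0.99 fell just short of 2-fold on the FPKM + 1 scale, and the ratio of the deposited values was 2.0.

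Smc1a (ENSMUSG00000041133, chromosome X, 152016428 to 152062694, plus strand) was at 13.2 and 22.9 FPKM, a log2 ratio of 0.75, the lowest of the 10. Its partner ATPase Smc3 (ENSMUSG00000024974, chromosome 19, 53600398 to 53645833, plus strand) was at 5.49 and 20.6 FPKM, a log2 ratio of 1.74 and 3.75-fold higher. The proteins pair in equal number in the ring. At the RNA level Smc1a stood 2.40 times as high as Smc3 in CH12F3 and 1.11 times as high in the library labelled Lig4-/-. The unadjusted levels of the pair thus lay nearer to each other in the latter. The GC content was 46.9% for Smc1a and 42.3% for Smc3.

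The STAG genes encode alternative subunits that contact CTCF and set where the ring resides. Stag2 (ENSMUSG00000025862, chromosome X, 42149317 to 42277185, plus strand) was at 2.40 FPKM in CH12F3 and 27.8 FPKM in the library labelled Lig4-/-, 11.6-fold higher with a log2 ratio of 3.08, the highest of the group. Stag1 (ENSMUSG00000037286, chromosome 9, 100597798 to 100959375, plus strand) was the lowest of the 10 in both libraries, at 0.78 and 5.96 FPKM, a log2 ratio of 1.97. Stag2 was the higher of the pair in both, by 3.08 times in CH12F3 and 4.66 times in the other library. With 1 FPKM added to each value the first of these became 1.91, because Stag1 was so low there.

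Together Stag1 and Stag2 came to 3.18 FPKM in CH12F3 and 33.7 FPKM in the library labelled Lig4-/-. Set against Rad21, the sum amounted to 0.0727 of its level in CH12F3 and to 0.385 of it in the other library. By these unadjusted values the STAG transcripts were scarce relative to the kleisin transcript in CH12F3 and less so in the library labelled Lig4-/-. The GC content was 41.9% for Stag1, 38.1% for Stag2 and 44.3% for Rad21.

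The release factors were all at least 2-fold higher. Wapl (ENSMUSG00000041408, chromosome 14, 34673928 to 34747983, plus strand), whose protein opens the ring to free it from DNA, was at 4.84 FPKM in CH12F3 and 44.8 FPKM in the library labelled Lig4-/-. That was 9.26-fold higher, with a log2 ratio of 2.97. In the order of levels Wapl was the fifth of the 10 in CH12F3 and the second, after Rad21, in the other library. Its ratio to Rad21 went from 0.111 to 0.511, with a GC content of 41.4% against 44.3% for Rad21.

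The PDS5 proteins bind the kleisin and act with WAPL in release and with the acetyltransferases in stable cohesion. Pds5a (ENSMUSG00000029202, chromosome 5, 65605721 to 65698273, minus strand) was at 4.23 and 23.2 FPKM, 5.48-fold higher with a log2 ratio of 2.21. Pds5b (ENSMUSG00000034021, chromosome 5, 150673739 to 150810690, plus strand) was at 1.21 and 6.72 FPKM, 5.55-fold higher with a log2 ratio of 1.80. The folds of the paralogs were nearly equal although their log2 ratios on the FPKM + 1 scale were not, since the added 1 FPKM weighs more on the lower gene. The level of Pds5b was 0.286 of that of Pds5a in CH12F3 and 0.290 of it in the library labelled Lig4-/-.

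The loader is a pair of NIPBL and MAU2, and only the first of these differed by more than 2-fold. Nipbl (ENSMUSG00000022141, chromosome 15, 8290617 to 8444463, minus strand) was at 1.69 FPKM in CH12F3 and 11.8 FPKM in the library labelled Lig4-/-, 7.0-fold higher with a log2 ratio of 2.25. Mau2 was at 10.2 and 12.8 FPKM, a log2 ratio of 0.30. Nipbl stood at 0.166 of the level of Mau2 in CH12F3 and at 0.926 in the other library. Against the release factor Wapl, whose action opposes loading, Nipbl stood at 0.349 and 0.264, so this balance differed less than that with Mau2. Transcripts of Mau2 held 51.9% G and C and those of Nipbl 42.4%, a difference that bears on the comparison, as described below.

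Ctcf (ENSMUSG00000005698, chromosome 8, 105636568 to 105682922, plus strand), the zinc finger protein at loop anchors and boundaries, was at 13.4 FPKM in CH12F3 and 32.7 FPKM in the library labelled Lig4-/-. It was 2.45-fold higher with a log2 ratio of 1.23. Its level relative to Rad21 was 0.305 and 0.372.

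As shares of their summed FPKM, the 10 genes were less dominated by Rad21 in the library labelled Lig4-/-. Rad21 held 48.1% of the sum in CH12F3 and 30.9% in that library, and Smc1a 14.5% and 8.04%. Wapl held 5.32% and 15.8%, and Stag2 2.64% and 9.78%. Smc3 kept close to its share, at 6.04% and 7.25%, as did Ctcf, at 14.7% and 11.5%. Nipbl, Pds5b and Stag1 were the lowest in both libraries. From the highest to the lowest, the order in CH12F3 was Rad21, Ctcf, Smc1a, Smc3, Wapl, Pds5a, Stag2, Nipbl, Pds5b and Stag1, and in the other library it was Rad21, Wapl, Ctcf, Stag2, Pds5a, Smc1a, Smc3, Nipbl, Pds5b and Stag1. Without replicates it cannot be said which neighbours in these orders differ.

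**Figure D2:**
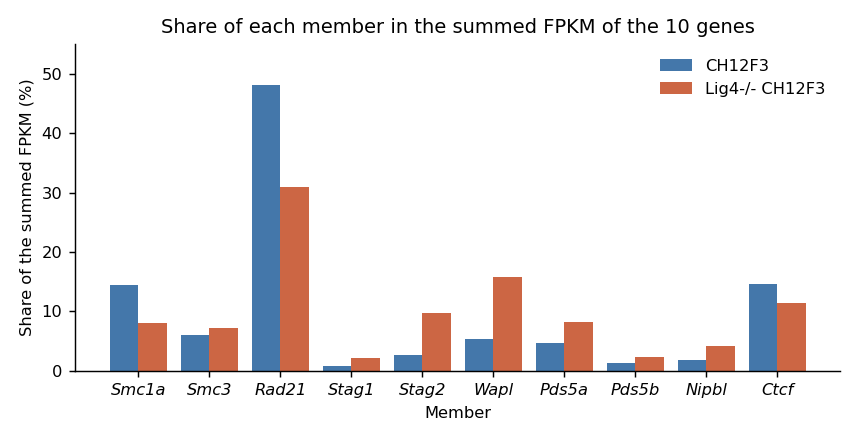
Share of each gene in the summed FPKM of the 10 genes, in percent, for CH12F3 and for the library labelled Lig4-/- (1 library each, no error bars). Rad21 goes from 48.1% to 30.9% while Wapl and Stag2 go from 5.32% and 2.64% to 15.8% and 9.78%.

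Set among all expressed genes, the levels moved up by unequal steps. Rad21 lay at percentile 77.9 of the levels in CH12F3 and at 88.1 of those in the library labelled Lig4-/-. Stag2 lay at 18.8 and 67.1, and Wapl at 32.2 and 78.0. Smc1a moved least, from 53.6 to 62.1, and Stag1 and Pds5b stayed in the lower part of the range, at 27.1 and 29.9 in the library labelled Lig4-/-.

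The choice of genes did not use the makeup of their transcripts directly. It used a difference that goes with GC content and length over expressed genes, as given below. The 10 transcripts shared such a makeup. They were long, with a median of 6179 bases for the longest annotated transcript against 3309 for expressed protein-coding genes, and their coding part ran from 1908 bases (Rad21) to 8397 (Nipbl), with 9 of 10 above the upper quartile of 2138 bases. They had 12 (Ctcf) to 47 (Nipbl) exons, against a median of 8. They were poor in G and C, with 38.1% (Stag2) to 46.9% (Smc1a) against a median of 49.9%, and 8 of the 10 lay under the lower quartile of 44.9%. In the 3′ untranslated part the GC content was 30.9% (Stag2) to 41.7% (Smc1a), with 9 of 10 under the lower quartile of 39.4%.

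Across all expressed genes, transcripts poor in G and C were higher in the library labelled Lig4-/-, and this touches every difference given above. When 11404 expressed genes were placed in 10 equal classes of GC content, Stag2, Wapl and Pds5b fell in the poorest class and Smc3, Stag1, Pds5a and Nipbl in the next. Rad21 fell in the third, and Smc1a and Ctcf in the fourth. In these classes the share of genes at least 2-fold higher was 68.4%, 53.4%, 34.6% and 23.0%, and 18.0%, 6.32%, 2.19% and 1.58% were at least 4-fold higher. The median log2 ratio of the classes was 1.36, 1.07, 0.70 and 0.50.

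Each of the 10 genes lay above the median of its own class, and 7 lay above its upper quartile. The distance above the class median was 1.72 for Stag2 and 1.61 for Wapl on the log2 scale, 1.18 for Nipbl and 1.14 for Pds5a. It was 0.25 for Smc1a, 0.29 for Rad21 and 0.44 for Pds5b, the 3 that lay within the quartiles of their classes. For Pds5b, at 1.21 FPKM in CH12F3, the added 1 FPKM lowers the log2 ratio. Its fold of 5.55 was near the 5.48 of Pds5a, and no GC adjustment was run without the pseudocount. Among the 10 genes themselves the log2 ratio had a Spearman's rho of -0.75 with GC content and of 0.67 with transcript length. Over 10395 expressed protein-coding genes these were -0.66 and 0.30. With the level in CH12F3 rho was -0.61 among the 10 and -0.49 over the protein-coding genes. That level is itself part of the ratio, and no adjustment for it was made. All these values come from the same 2 libraries. Genes chosen as higher are favoured to lie above the median of their class, so no excess beyond GC content is read from these counts.

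**Figure D3:**
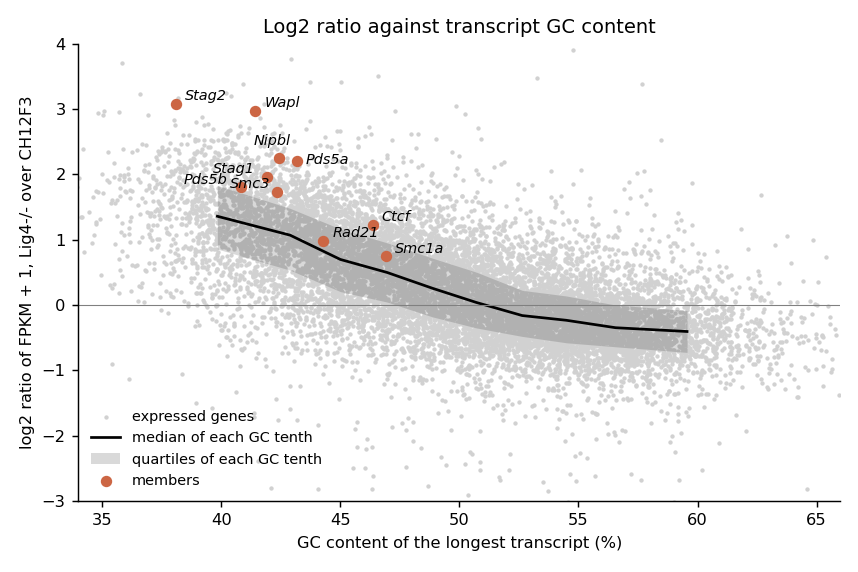
Log2 ratio of FPKM + 1 (Lig4-/- over CH12F3) against the GC content in percent of the longest transcript, for expressed genes (grey), with the median and quartiles of each class of GC content (line and band) and the 10 genes in colour. All 10 lie above the line, and Stag2 and Wapl stand farthest from it, while 100 of the 11404 genes lie outside the plotted range.

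When a smooth curve of log2 ratio on GC content was subtracted, all 10 genes stayed above 0 and 4 were at least 2-fold higher, against 5.76% of all expressed genes. These were Wapl at 1.79, Stag2 at 1.62, Pds5a at 1.24 and Nipbl at 1.19. Stag1 was at 0.84, Ctcf at 0.67, Smc3 at 0.66 and Pds5b at 0.57. Smc1a, at 0.25, and Rad21, at 0.16, were close to 0. The adjusted median of the 10 was 0.75. The curve was fitted to the same log2 ratios, and over all expressed genes the adjusted median was -0.01. The choice of higher genes also favours values above the curve, so the adjusted counts are a description.

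Adjusted for length as well, 3 genes were at least 2-fold higher, against 5.36% of all, with Wapl at 1.61, Stag2 at 1.44 and Pds5a at 1.02, and Nipbl was then at 0.97. With the GC content of the coding part in place of the whole transcript, a choice made after the data were seen, 2 remained past 2-fold, Stag2 and Wapl. Stag2 and Wapl were the 2 of the 10 past 2-fold under every treatment of the values that was run. The ring subunits Smc1a and Rad21 were the nearest to 0 under each of the GC adjustments except that on coding GC, where Smc3, at 0.39, lay below Rad21.

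**Figure D4:**
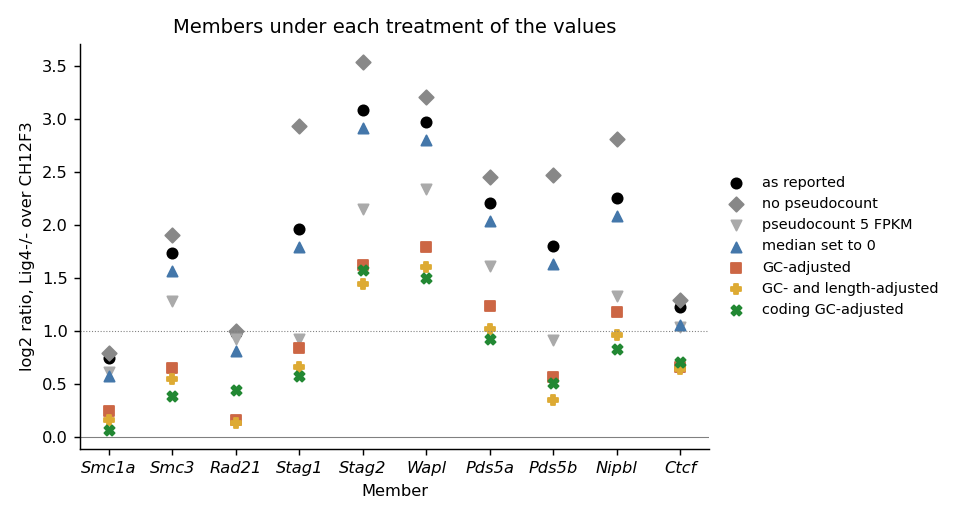
Log2 ratio (Lig4-/- over CH12F3) of each of the 10 genes as reported and under 6 other treatments of the values, with the dotted line at 2-fold. Every point lies above 0, and those of Stag2 and Wapl all lie above the dotted line.

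Close copies and overlapping genes, between which reads could be divided, were few or low. Of 50-base windows along the longest transcripts, none was shared with the transcript of another gene for 8 of the 10. For Smc3 1.56% of windows were shared, with the pseudogenes Gm11204 and Gm29763, both listed at 0 FPKM, and with another model that has no value in the table. For Pds5a 2.62% were shared, with the overlapping models Gm42727 and Gm42729, at most at 0.12 FPKM. In all, 18 annotated genes overlap the 10, and 17 were at or under 0.2 FPKM in both libraries. The exception was Gm5914, a noncoding RNA on the other strand across the start of Ctcf, at 8.21 and 7.61 FPKM. Whether the counting used strand is not stated in the sources.

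Other genes of the cohesin pathway were read from a list of 31 cofactors, germline subunits and partners at loops. Of 26 expressed, 7 lay at least 2-fold higher and none 2-fold lower, beside 21.0% and 4.09% of all expressed genes, so the higher share was near that background. Their median log2 ratio was 0.10, beside 0.17 over all expressed genes, and the difference from the 10 genes was not tested. That median turned to -0.07 once the ratios were centred on the median of all expressed genes. After GC adjustment the median was 0.14 and 2 genes were at least 2-fold higher, where 5.76% of all expressed genes were. The GC content of these 26 had a median of 51.5%, and 6 of the 7 higher genes were among the 8 that fell in the poorest 2 classes. Of the 7, Esco1 (0.42 FPKM in CH12F3) and Sgo2a (0.56 FPKM) counted as expressed only through the library labelled Lig4-/-.

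The acetyltransferases, which lock the ring on sister chromatids by acetylating SMC3, had the highest log2 ratios of the list, with Esco1 near the floor in CH12F3. Esco1 was at 0.42 FPKM in CH12F3 and 7.22 FPKM in the library labelled Lig4-/-, a log2 ratio of 2.53 that was 1.16 after GC adjustment. Esco2, the S phase enzyme, was at 2.57 and 18.7 FPKM, with 2.46 and 0.90. Hdac8, which removes the same acetyl groups, was at 6.20 and 6.56 FPKM, a log2 ratio of 0.07 that became -0.92 after adjustment. The writers of the mark were thus higher in the library labelled Lig4-/- while its eraser was at nearly the same level before adjustment.

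Shugoshins protect centromeric cohesin in mitosis. Sgo1 was at 7.87 and 25.8 FPKM, a log2 ratio of 1.59 that adjustment brought to 0.42. Sgo2a was at 0.56 and 4.75 FPKM, a log2 ratio of 1.88 brought to 0.61. The others that govern cohesion in mitosis were within 2-fold. Cdca5, which encodes sororin, the antagonist of WAPL, was at 51.5 and 41.7 FPKM, a log2 ratio of -0.30. The separase gene Espl1 was at 29.8 and 20.3 FPKM (-0.53), and its inhibitor securin, Pttg1, the most abundant gene of the list in CH12F3, at 276 and 240.4 FPKM (-0.20). Cdca5 thus stood 10.6 times as high as Wapl in CH12F3 and at 0.930 of its level in the library labelled Lig4-/-, with a GC content of 51.5% against 41.4% for Wapl.

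None of 4 genes that couple cohesion to the replication fork was 2-fold apart, and their log2 ratios ran from -0.51 for Chtf18 (24.1 and 16.6 FPKM) to 0.36 for Dscc1 (5.67 and 7.59 FPKM). Ddx11, a helicase of the same group and the gene with the lowest level among the 26 expressed ones in the library labelled Lig4-/-, was at 5.34 and 3.95 FPKM. The mitotic kinases Haspin, Cdk1 and Plk1 were within 2-fold.

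Germline subunits were not expressed in either library. Rad21l, Rec8 and Stag3 were listed at 0 in both, Smc1b at 0.01 FPKM in CH12F3 alone, and Ctcfl, the germline paralog of Ctcf, at 0.25 and 0.03 FPKM. The somatic subunits thus made up all but a trace of the measured cohesin transcripts.

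Among 10 partners at loops and forks, 3 were at least 2-fold higher, a share not far from the 21.0% of all expressed genes. Top2b, a topoisomerase found at loop anchors, was at 2.48 and 13.5 FPKM, a log2 ratio of 2.06 (0.96 when GC-adjusted). Top2a, its mitotic paralog, was at 63.7 and 192 FPKM (1.58, GC-adjusted 0.63). Yy1, a DNA-binding protein that joins enhancers to promoters, was at 10.3 and 24.4 FPKM (1.17, GC-adjusted 1.10). Yy1 was the 1 gene of the 7 whose GC content, 50.7%, lay near the median of all genes, and its log2 ratio moved least with the adjustment. The others were within 2-fold, among them Mcm7 at 156 and 106 FPKM and Zfp143 at 4.67 and 6.45 FPKM.

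**Figure D5:**
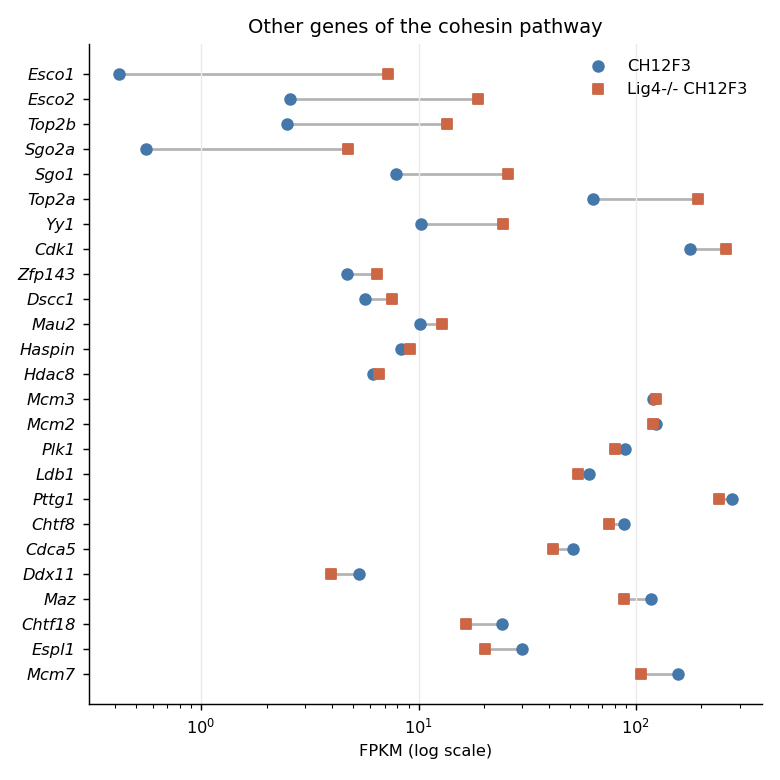
FPKM on a log scale of 25 of the 26 expressed genes of the pathway list in the CH12F3 library (circles) and the library labelled Lig4-/- (squares), ordered from the highest log2 ratio to the lowest, 1 library each and no error bars. The 7 at the top, from Esco1 to Yy1, are at least 2-fold higher, and none at the bottom is 2-fold lower.

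In the related SMC complexes, condensin and SMC5/6, all 4 ATPase genes had log2 ratios above 1. Of their 14 genes 7 were at least 2-fold higher and 1 lower, where 21.0% and 4.09% of all expressed genes were. After GC adjustment 4 were higher and none lower, where 5.76% and 5.98% of all expressed genes were. The adjusted median of the 14 was 0.02, and 7 of them lay above 0. The difference between these genes and the cohesin genes was not tested. The condensin ATPases Smc2, at 2.52 and 21.7 FPKM, and Smc4, at 3.97 and 29.8 FPKM, stood at log2 ratios of 2.69 and 2.63, or 1.35 and 1.34 when GC-adjusted. Smc6 was at 1.74 and 13.98 FPKM (2.45, GC-adjusted 1.18) and Smc5 at 1.04 and 5.89 FPKM (1.76, GC-adjusted 0.34). By the unadjusted log2 ratios Smc1a was therefore the 1 SMC ATPase gene of the 6 that was within 2-fold. After GC adjustment Smc3, at 0.66, and Smc5 were within 2-fold as well, beside 0.25 for Smc1a.

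The other higher genes were the condensin subunits Ncapg (3.84 and 15.1 FPKM), Ncapg2 (6.41 and 27.9 FPKM) and Ncapd3 (6.26 and 14.6 FPKM). Their log2 ratios were 1.73, 1.97 and 1.10, and 0.04, 1.14 and 0.59 after GC adjustment. The kleisin of condensin II, Ncaph2, was the 1 lower gene, at 279 and 136 FPKM (-1.02, GC-adjusted -0.75), and the kleisin of condensin I, Ncaph, was at 32.4 and 40.9 FPKM. The lowest of the 14 was Nsmce3, at 0.78 and 1.76 FPKM, which also counted as expressed only through the library labelled Lig4-/-.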

How the data were processed

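Total RNA was extracted with Trizol and libraries were made from 5 µg of it by the Illumina TruSeq RNA method, per the labels' protocols, 1 library for each line. The authors deposited FPKM values with 2 decimals for 53873 features, of which 51912 carry mouse Ensembl identifiers. Per the submitters' processing notes, CASAVA and TopHat were used and the build was GRCh38, a human build, so the build behind the values is uncertain, and versions and the program that made the FPKM values are not stated in the sources. Symbols, positions, GC content and lengths came from GENCODE M21 (GRCm38), which named 51633 identifiers. Of identifiers with the same symbol, that with the highest mean was kept.

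The pseudocount was 1 FPKM, expressed genes had a mean of at least 1 FPKM, and genes past 2-fold were counted, in Python 3.11.15. GC adjustment subtracted a lowess curve (fraction 0.3, statsmodels 0.14.6) from the log2 ratios, and the step was tested on simulated data. The simulation left out genes low in CH12F3, among them Wapl, Stag2, Pds5a, Pds5b, Nipbl and Stag1, so it does not cover them. There was no test between groups. The text names all 10 genes, from the other lists each gene 2-fold apart and those with the highest and lowest level, and Lig4; further genes are examples chosen after their values were seen. A few listed genes are counted but not reported here by name. The genes and lists were chosen with earlier results of these data known. Other pseudocounts, scalings, filters, thresholds, GC and length adjustments and summed identifiers were tried.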

Additional observations from a re-analysis of the deposited data

Results flagged for a closer look

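Assembled loci with no Ensembl identifier, which were not used in the comparisons, held 3.21% of the FPKM sum in the library labelled Lig4-/- and 2.26% in the CH12F3 library. Whether any of them belongs to a cohesin gene was not tested.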

How the results depend on the processing

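All 10 genes stayed above 0 under each of the 10 alternatives run for them, an outcome that their choice as higher genes favours. GC adjustment left 4 of them at least 2-fold higher (median 0.75), GC and length adjustment 3 (median 0.66), and adjustment on coding GC, added after the data were seen, 2 (median 0.64), while a 4-fold threshold left 4. A pseudocount of 5 FPKM left 6 (median 1.16), with Stag1 at 0.92 and Pds5b at 0.92 no longer 2-fold apart. The pathway list then had 2 genes apart with GC adjustment and 1 with length as well, and its median became -0.070 when the overall median was set to 0. Condensin and SMC5/6 had 4 higher with either adjustment. Over all expressed genes, 2402 higher and 468 lower became 1104 and 252 with a pseudocount of 5 FPKM, 1871 and 777 with the median set to 0, 657 and 682 with GC adjustment, 611 and 676 with length as well, 1589 and 357 for means of at least 5 FPKM, 358 and 86 at 4-fold, and 3874 and 1636 at 1.5-fold. The higher share of 83.7% was thus 70.7% with the median set to 0 and 49.1% after GC adjustment. With 1 FPKM added, the ratio of Stag2 to Stag1 in CH12F3 was 1.91 instead of 3.08. Thresholds, filters and adjustments change these counts by their construction, and the cause of the relation to GC content was not tested. Depth is unknown, so the low values of Stag1, Pds5b and Nipbl in CH12F3 carry an error that cannot be given. No paired analysis was possible because each line has 1 library.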

Other observations

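Genes next to the 10 on the chromosome were read as well, taking the nearest expressed protein-coding gene on each side at any distance. Distances ran from 0.133 kb (Ribc1 from Smc1a) to 5635 kb (Ocrl from Stag2), so not all of these genes are adjacent. Of these 20 neighbours 8 lay at least 2-fold higher, and none 2-fold lower, in the library labelled Lig4-/-, beside 21.0% and 4.09% of all expressed genes. Their median log2 ratio was 0.83, and they had a median of -0.01 after GC adjustment. Their median GC content was 44.4%, and 34.6% of the expressed genes in the class of GC content that holds this value were at least 2-fold higher. Xiap, which encodes an inhibitor of caspases and lies 39.7 kb from Stag2, was the highest of them, at 1.24 and 8.30 FPKM (log2 ratio 2.05, GC-adjusted 0.50). Ribc1, which lies 0.133 kb from Smc1a, was at 6.53 and 11.2 FPKM, a log2 ratio of 0.70 beside 0.75 for Smc1a. After GC adjustment these were 0.64 and 0.25. Carmil2, next to Ctcf, was the lowest, at 8.56 and 5.15 FPKM (-0.64).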
